A study of Mus musculus with 12 samples.

Results

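The diet effect described here is the difference in heart gene expression between mice fed without and with branched-chain amino acids (BCAA), averaged over sham surgery and transverse aortic constriction (TAC). It was formed, for every gene listed in both deposited diet tables with a mean of at least 10 normalised reads, as the mean of the difference in TAC hearts and the difference in sham hearts. All 12 libraries of the series enter it, 6 from BCAA-free hearts against 6 from control hearts, with surgery as a block, and 15458 genes were tested. The hearts came from male C57Bl/6J mice aged 12 weeks in groups of 3 libraries, called BCAA-free TAC, control TAC, BCAA-free sham and control sham. BCAA-free mice ate a diet from which leucine, isoleucine and valine had been left out, and control mice a diet that supplied them at about the amounts of standard chow. Both diets held 1% propionate, so all 4 groups received propionate and its own effect cannot be seen in this comparison. Feeding started 4 days ahead of surgery and went on until the hearts were collected 1 week after it. TAC narrows the aorta and loads the left ventricle with pressure. The labels give no food intake, body weight or hour of collection. They also leave unsaid whether each library is a different mouse, and the p-values therefore rest on a spread among libraries that may be only technical.

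Leucine, isoleucine and valine are essential amino acids, and heart muscle both builds them into protein and burns them. Their breakdown starts with a transaminase and the branched-chain ketoacid dehydrogenase complex, and isoleucine and valine end as propionyl-CoA, the same compound that cells form from propionate. Cells sense leucine through regulators of the growth kinase complex mTORC1, and a shortage of any amino acid can switch on the transcription factor ATF4.

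Values are reads divided by the authors' size factor, called normalised reads, and every change is a BCAA-free minus control difference of log2(value + 4) with its SE. A gene rose or fell where limma's adjusted p was under 0.05 over all genes tested. Whether a call stood was recomputed under 23 alternatives of scaling, filter, model, test and libraries. The libraries held 29925796 to 46099197 reads in genes. Markers of heart muscle were abundant in each library, the 13 cardiomyocyte genes summing to 80351 to 96313 CPM, the reads of a gene scaled to a common library total. Control TAC replicate 2 held 122 CPM of RNA polymerase III transcripts, against at most 26.3 CPM in the other 11 libraries. Control TAC replicate 3 held 48.3 CPM of the 3 liver genes listed in both tables, against 6.41 to 18.9 CPM elsewhere. Many counts of calls below are also given with both left out. That fit is weighted toward sham hearts, since fewer TAC libraries remain, and is not the plain mean of both differences.

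Diet changed 1617 of 15458 genes on average over the surgeries (10.5% of genes tested), with 667 higher (4.31%) and 950 lower (6.15%) in BCAA-free hearts. The changes were mostly small. Of the genes that rose, 118 did so at least 1.5-fold and 26 at least 2-fold, and of those that fell, 278 and 93. The median change was 0.30 among risen genes and -0.40 among fallen genes, beside 0.01 over all genes. Every 1 of the 1617 had the same sign in both surgeries, which the averaging favours. The 3 BCAA-free libraries lay wholly above the 3 control libraries in TAC and in sham hearts alike for 357 of the risen genes, and wholly below for 491 of the fallen genes, beside 6.57% of all genes tested in either direction (2.95% above, 3.62% below). Most calls came from joining the surgeries. Tested alone, the diet effect was called for 548 genes in TAC hearts (3.38%; 1.27% higher and 2.11% lower) and 438 in sham hearts (2.81%; 1.05% higher and 1.76% lower). Of the averaged calls, 454 of the risen and 541 of the fallen genes were called in neither. In the authors' deposited tables, 1188 genes passed in TAC hearts and 813 in sham hearts.

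The averaged count depended on the libraries. It was 940 without BCAA-free TAC replicate 2 and 1020 without control TAC replicate 2. Among sham libraries it was 1060 when BCAA-free replicate 1 was left out, 1030 for BCAA-free replicate 3 and 993 for control replicate 2. Without control TAC replicates 2 and 3 together it was 611, with 207 higher and 404 lower.

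The TAC and the sham differences share no library, so each can be read against the other. Of 437 genes called in sham hearts and listed in the TAC table, 391 (89.5%) had the same sign in TAC hearts. In the other direction, 445 of 509 genes called in TAC hearts (87.4%) had the same sign in sham hearts, and the 57 genes called in both had the same sign in each. Over all 15445 genes tested in both tables, 63.8% had the same sign. The differences in the 2 surgeries correlated across genes with Pearson r = 0.43 and Spearman rho = 0.38, a description over genes, which are not independent replicates.

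**Figure D1:**
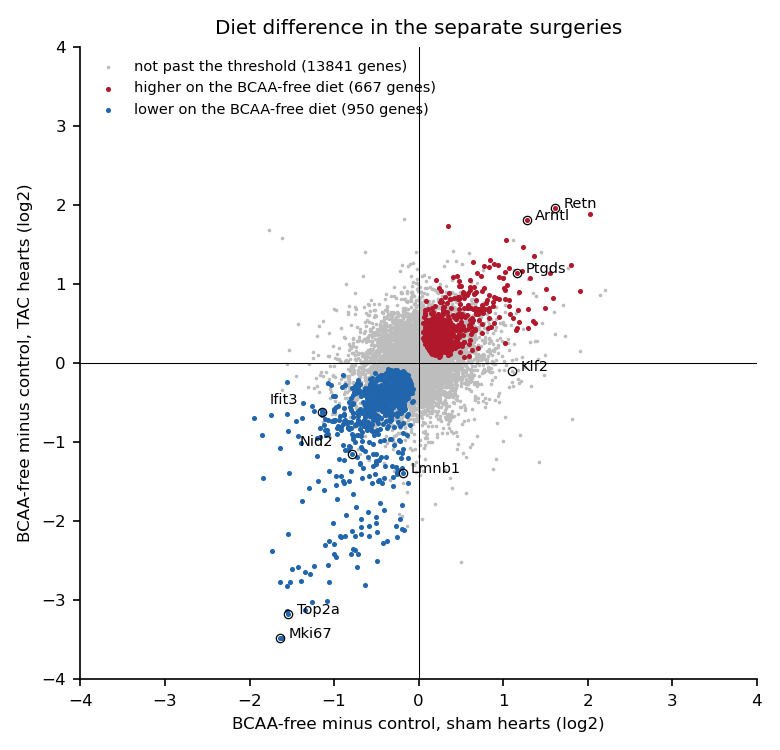
Each point is a gene, with its BCAA-free minus control difference (log2) in sham hearts on the horizontal axis and in TAC hearts on the vertical axis; colour marks the 667 genes that rose and the 950 that fell in the averaged effect, and grey the rest. The called genes lie in the quadrants where both surgeries have the same sign, and Mki67 (-3.48 in TAC, -1.64 in sham hearts) and Pimreg (-3.48 in TAC, -1.62 in sham hearts) lie farthest below.

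Among the named genes that rose, the smallest adjusted p was that of Ptgds (ENSMUSG00000015090, chr2:25466709-25470046, reverse strand of GRCm38), which encodes prostaglandin D2 synthase of the lipocalin type. It had 36222, 40267 and 32228 normalised reads in BCAA-free TAC hearts against 13728, 14255 and 22496 in control TAC hearts, and 33052, 23676 and 26524 in BCAA-free sham hearts against 14677, 10414 and 12071 in control sham hearts. Every BCAA-free library exceeded every control library of its surgery, and the averaged rise was 2.22-fold (1.15 ± 0.12, adjusted p = 0.000382), with 1.14 in TAC and 1.16 in sham hearts. Gpnmb, a membrane glycoprotein of macrophages and other cells, rose alongside (1.03 ± 0.17, adjusted p = 0.00279). Its values were 169, 205 and 201 normalised reads in BCAA-free TAC and 136, 92.7 and 54.7 in control TAC hearts, and 113, 96.3 and 98.3 in BCAA-free sham and 51.1, 45.6 and 51.2 in control sham hearts, so the diets did not overlap in either surgery. Chad, a cartilage matrix protein, also rose with no overlap (1.34 ± 0.29, adjusted p = 0.01). Ptgds, Gpnmb and Chad passed under each of the 23 alternatives. Scube3, a secreted epidermal growth factor repeat protein, rose as well (1.09 ± 0.29, adjusted p = 0.0266), but did not pass under 5 of them, and BCAA-free sham replicate 1 was level with the controls there.

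**Figure D2:**
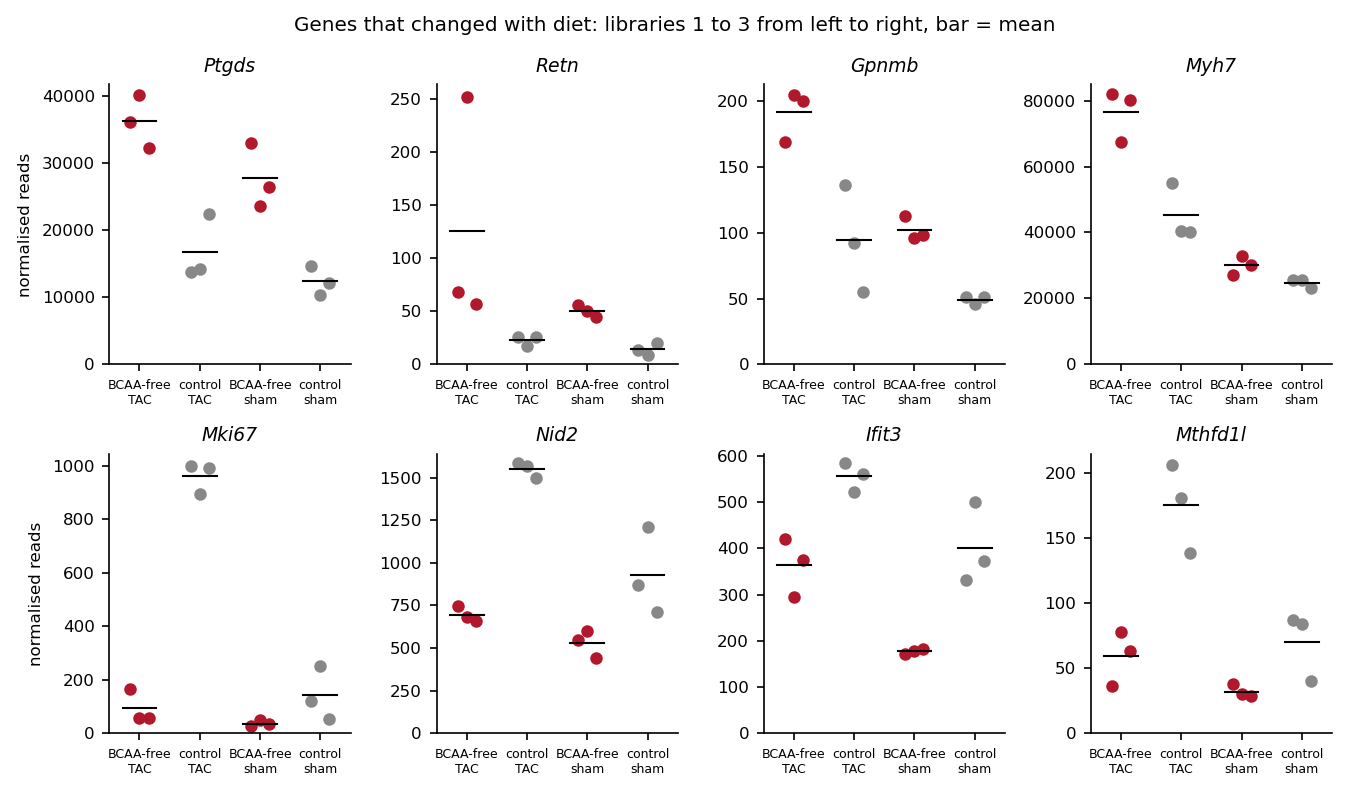
Normalised reads of 8 genes in the 12 libraries, with 1 point per library and a bar at the mean of the 3 libraries of a group. Ptgds, Retn, Gpnmb and Myh7 lie higher, and Mki67, Nid2, Ifit3 and Mthfd1l lower, in the BCAA-free group than in the control group of each surgery; Mki67 and Mthfd1l reach their highest levels in control TAC hearts.

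Enzymes of BCAA breakdown moved little, and mainly upward. Of 24 tested, 6 rose (Acadsb, Ivd, Echs1, Aldh6a1, Ppm1k and Bckdk) and 1 fell (Bcat1), with a median of 0.10. The shares over all genes tested were 4.31% risen and 6.15% fallen. Acadsb, which oxidises the isoleucine-derived acyl-CoA, had 4455, 4681 and 4995 normalised reads in BCAA-free TAC hearts against 3519.9, 3784 and 3705 in control TAC hearts, and 4227, 4831 and 4830.3 in BCAA-free sham hearts against 3472, 3435 and 4119.9 in control sham hearts. No BCAA-free library overlapped a control library of its surgery, and the rise was 1.27-fold (0.35 ± 0.06, adjusted p = 0.00269). Ivd, the dehydrogenase of the leucine branch, rose by 0.34 ± 0.08 (adjusted p = 0.0128), and Aldh6a1, which forms propionyl-CoA in the valine branch, by 0.24 ± 0.07 (adjusted p = 0.0334). Ppm1k, the phosphatase that activates the ketoacid dehydrogenase, rose by 0.30 ± 0.09 (adjusted p = 0.0408), and so did Bckdk, the kinase that inhibits it, by 0.17 ± 0.05 (adjusted p = 0.0304). Bcat1, the cytosolic transaminase (ENSMUSG00000030268, chr6:144993835-145076184, reverse strand), was the exception. It measured 56.1, 67.2 and 52.1 normalised reads in BCAA-free TAC and 137, 80.7 and 82.5 in control TAC hearts, and 22.1, 18.9 and 30.3 in BCAA-free sham and 61.5, 59.7 and 45.1 in control sham hearts. The diets did not overlap in either surgery, and the fall was 1.87-fold (-0.91 ± 0.17, adjusted p = 0.00595). Bcat2, its mitochondrial counterpart and the main form in heart, differed by 0.18 ± 0.06 (adjusted p = 0.0638), short of the threshold. The 6 rises are the less firm side of this result: leaving out BCAA-free TAC replicate 2 or 3, control TAC replicate 1 or 2, BCAA-free sham replicate 3 or control sham replicate 1 or 2 left 2 or 3, and leaving out both control TAC replicates 2 and 3 left 2. Bcat1 passed in each alternative.

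Genes that handle propionate, supplied to both diets, gave fewer calls, though their median of 0.09 was near the 0.10 of the breakdown enzymes. The share of risen genes was near the 4.31% over all genes tested. Of 17 tested, 1 rose, Mut, the methylmalonyl-CoA mutase that carries propionyl-CoA carbon into the TCA cycle (0.18 ± 0.05, adjusted p = 0.0332), and it did not pass under 7 alternatives; without control TAC replicates 2 and 3 together 0 rose. Pcca and Pccb, the subunits of propionyl-CoA carboxylase, differed by 0.18 ± 0.05 (adjusted p = 0.0504) and 0.07 ± 0.06 (adjusted p = 0.472).

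Genes that respond to amino acid shortage were called in both directions. Of 32 ATF4 targets, 2 rose and 5 fell, beside 4.31% and 6.15% of all genes tested, so the rises were near the background. Their median was -0.05. The rises were 1 with most single libraries left out and the falls 4 to 6, and without control TAC replicates 2 and 3 together 1 rose and 3 fell. The fallen members were Mthfd2, Mthfd1l and Aldh1l2, enzymes of the mitochondrial folate cycle, Aldh18a1, which starts proline synthesis, and Slc7a5, the light chain of a leucine transporter. Mthfd1l (ENSMUSG00000040675, chr10:3973118-4167081, forward strand) had 36.3, 78.1 and 63.4 normalised reads in BCAA-free TAC hearts against 206, 181 and 138 in control TAC hearts, and 37.5, 30.1 and 28.4 in BCAA-free sham hearts against 87.1, 83.6 and 40.1 in control sham hearts. It was lower in every BCAA-free library than in any control library of the same surgery, 2.40-fold on average (-1.26 ± 0.22, adjusted p = 0.00356). Mthfd2 measured 172, 111 and 131 normalised reads in BCAA-free TAC and 687, 435 and 536 in control TAC hearts, and 83.7, 60.2 and 82.3 in BCAA-free sham and 229, 74.9 and 105 in control sham hearts. It fell by 1.33 on the log2 scale (SE 0.27, adjusted p = 0.00788), although control sham replicate 2 lay within the BCAA-free sham range. Aldh1l2 fell without overlap (-0.84 ± 0.15, adjusted p = 0.00392). Members often used as readouts of amino acid stress gave no call: Trib3 differed by 0.11 ± 0.13 (adjusted p = 0.659), Asns by -0.41 ± 0.16 (adjusted p = 0.104) and Chac1 by 0.13 ± 0.09 (adjusted p = 0.393). The risen members were Slc7a1, a transporter of cationic amino acids (0.41 ± 0.08, adjusted p = 0.00615), and Slc3a2, the heavy chain shared by several transporters (0.18 ± 0.06, adjusted p = 0.0474). The same 2 genes and Slc7a5 (-0.41 ± 0.11, adjusted p = 0.0302) were the only calls among 30 amino acid transporters, and Slc7a5 did not pass under 7 alternatives. Over all genes tested, 10.5% were called in either direction, about the share among the transporters. Leaving out control TAC replicates 2 and 3 together, 1 transporter rose and 1 fell.

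Regulators of amino acid sensing were close to level, with 0 of 36 that rose and 2 that fell, beside 4.31% and 6.15% of all genes. Both were folliculin-interacting proteins, which help mTORC1 respond to amino acids at the lysosome. Fnip1 had 1694, 1497 and 1743 normalised reads in BCAA-free TAC hearts against 2094, 2065 and 1967 in control TAC hearts. In sham hearts the counts were 1496, 1598 and 1401 on the BCAA-free and 2029, 1760.3 and 1766 on the control diet. The groups did not overlap (-0.31 ± 0.05, adjusted p = 0.00369), nor did those of Fnip2 (-0.40 ± 0.08, adjusted p = 0.00629). Among 20 cytosolic tRNA synthetases, Vars, the enzyme that loads valine, fell (-0.27 ± 0.06, adjusted p = 0.0164) and Kars, which loads lysine, rose (0.17 ± 0.04, adjusted p = 0.0268). The list median was -0.02, and the calls were again about as frequent as over all genes. Of the 91 genes named by rule, Fnip2 and Vars did not pass under 1 alternative each, and Kars under 8. By limma, 1 sensing gene and 0 synthetases were called without control TAC replicates 2 and 3 together.

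Ribosomal protein genes rose in number but by little. Of 78 tested, 34 rose and 0 fell, beside 4.31% and 6.15% of all genes tested. Of the 78, 76 lay above 0, and the median was 0.18, beside a median of 0.01 over all genes. The medians were 0.29 in TAC and 0.08 in sham hearts. Fau, whose product is processed to a small subunit protein, measured 7074, 7948 and 7410.1 normalised reads in BCAA-free TAC and 6392, 6143 and 5815 in control TAC hearts, and 5532, 5069 and 5411 in BCAA-free sham and 4919, 4629 and 4668 in control sham hearts (0.23 ± 0.05, adjusted p = 0.00726). Its groups did not overlap in either surgery, whereas for 70 members they overlapped in at least 1. The 8 members without overlap stand beside 2.95% of all genes tested that lay higher without overlap. The largest rises were those of Rps27 (0.54 ± 0.13, adjusted p = 0.0166) and Rps21 (0.46 ± 0.11, adjusted p = 0.0162), of the small subunit. The count of 34 was 9 without control TAC replicate 2, 9 without control sham replicate 2, 10 without BCAA-free TAC replicate 2, 13 without control TAC replicate 3, and 14, 16, 15 and 21 without BCAA-free sham replicate 1, BCAA-free sham replicate 3, BCAA-free TAC replicate 3 and control TAC replicate 1, and it was 52 without BCAA-free sham replicate 2. It was 1 without control TAC replicates 2 and 3 together, with a median of 0.14. These genes have pseudogenes with which they may share reads, and their values are uncertain on that account. Nuclear genes of the respiratory chain had a like pattern, with 5 of 43 that rose, 40 above 0 and a median of 0.12. Examples were Ndufa2, a complex I subunit (0.35 ± 0.10, adjusted p = 0.0331), and Sdhc, of complex II (0.25 ± 0.07, adjusted p = 0.0337). Without BCAA-free TAC replicate 1, BCAA-free sham replicate 2 or control sham replicate 1 or 3, 5 to 12 members rose, and 0 rose without any 1 of the other 8 libraries or without both control TAC replicates 2 and 3. The 13 mitochondrially encoded transcripts gave 0 calls by limma (2 at an unadjusted p under 0.05, 0 calls by edgeR and 1 by DESeq2), the smallest p being that of mt-Nd6 (0.26 ± 0.10, adjusted p = 0.106).

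On average over the surgeries, cell division genes fell further than any other group tested. Of 43 genes of mitosis and DNA replication, 30 fell and 1 rose, beside 6.15% and 4.31% of all genes tested. Of the 43, 40 lay below 0, and the median was -1.06, with -1.45 in TAC and -0.30 in sham hearts. In TAC hearts 42 of the 43 lay below 0, and in sham hearts 31. For 13 the diets did not overlap in either surgery, beside 6.57% of all genes tested. Genes of this list made up 22 of the 93 that fell at least 2-fold, and the 10 named for the largest falls are all known from the cell cycle. Top2a, the topoisomerase that untangles replicated chromosomes (ENSMUSG00000020914, chr11:98992943-99024189, reverse strand), had 125, 42.3 and 51.2 normalised reads in BCAA-free TAC hearts against 668, 602 and 597 in control TAC hearts, and 23.1, 26.6 and 25.5 in BCAA-free sham hearts against 90.5, 124 and 46.1 in control sham hearts. All BCAA-free libraries lay below all control libraries of their surgery, and the averaged fall was 5.13-fold (-2.36 ± 0.32, adjusted p = 0.00107). Mki67, a chromosome surface protein used as a proliferation marker, measured 167, 56.4 and 58.2 normalised reads in BCAA-free TAC and 998, 895 and 991 in control TAC hearts, and 26.0, 48.1 and 34.0 in BCAA-free sham and 122, 251 and 52.2 in control sham hearts. It fell 5.90-fold (-2.56 ± 0.39, adjusted p = 0.00228), with control sham replicate 3 only just above the highest BCAA-free sham library. Ube2c, which marks mitotic cyclins for destruction (ENSMUSG00000001403, chr2:164769898-164778822, forward strand), fell 4.15-fold (-2.05 ± 0.28, adjusted p = 0.00106). Ccna2, which encodes cyclin A2, fell by the same factor (-2.05 ± 0.24, adjusted p = 0.000569), and Uhrf1, which keeps DNA methylation through replication, 4.43-fold (-2.15 ± 0.25, adjusted p = 0.000569).

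The size of the fall varied among members. The replication licensing genes Mcm2 (-0.78 ± 0.15, adjusted p = 0.00587) and Mcm3 (-0.87 ± 0.14, adjusted p = 0.00279) and the mitotic kinase Aurkb (-2.07 ± 0.34, adjusted p = 0.00279) fell, and Pcna, the replication clamp, differed by -0.22 ± 0.08 (adjusted p = 0.104). Cdkn1a, which encodes the cell cycle inhibitor p21, was the 1 member that rose. It measured 1971, 1548 and 1794 normalised reads in BCAA-free TAC and 1642, 1311 and 1391 in control TAC hearts, and 2007, 1770.4 and 1578 in BCAA-free sham and 1219, 1253 and 1034 in control sham hearts, and its groups overlapped in TAC but not in sham hearts (0.45 ± 0.09, adjusted p = 0.00695). The count of 30 fell genes was 21 to 31 with any 1 library left out. It was 13 without control TAC replicates 2 and 3 together, where the median was -0.83, and Top2a, Mki67, Ube2c, Ccna2 and Uhrf1 still passed. Leaving both out weights the fit toward sham hearts, where the list median was -0.30, against -1.45 in TAC hearts. In bulk hearts, fewer dividing cells and less of these transcripts per cell cannot be told apart.

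Promoters were read from RefSeq (GRCm38.p6), 250 bases before to 50 after the start of each gene, of which 11107 of the 15458 tested genes had a match. The promoters of Ube2c and Top2a are shown because they carry, in dense form, the motif most often found in the division genes. Capitals mark the CCAAT box, read as ATTGG where it lies on the other strand. They also mark the cell cycle homology region, searched as TTTGAA on both strands. In Ube2c a box on each strand overlaps in 1 stretch.
Ube2c (chr2:164769679-164769978, forward strand): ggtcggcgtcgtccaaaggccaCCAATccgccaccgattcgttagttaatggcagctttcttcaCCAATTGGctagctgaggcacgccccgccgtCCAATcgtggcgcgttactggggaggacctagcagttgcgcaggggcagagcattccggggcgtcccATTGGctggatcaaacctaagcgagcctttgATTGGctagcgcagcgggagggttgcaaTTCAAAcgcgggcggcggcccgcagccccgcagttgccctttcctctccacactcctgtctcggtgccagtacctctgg
Top2a (chr11:99024140-99024439, reverse strand): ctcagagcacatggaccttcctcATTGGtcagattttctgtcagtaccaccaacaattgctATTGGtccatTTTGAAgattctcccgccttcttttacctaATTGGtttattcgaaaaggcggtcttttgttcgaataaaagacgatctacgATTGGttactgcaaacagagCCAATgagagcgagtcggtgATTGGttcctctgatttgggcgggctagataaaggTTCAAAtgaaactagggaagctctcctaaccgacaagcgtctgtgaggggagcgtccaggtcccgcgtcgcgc

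Each window held 6 CCAAT boxes, counted on both strands, with 1 TTTGAA in Ube2c and 2 in Top2a. Of the 32 division genes with a promoter, 24 (75%) held CCAAT, beside 42.3% of all tested genes with a promoter, and 14 (43.8%) held TTTGAA, beside 14.1%. TTTGAA was added after the results were seen. CCAAT was no mark of this group alone, since 14 of 17 clock genes and 17 of 28 ATF4 targets held it too. Over all fallen genes the share with CCAAT was 41.6%, and over all risen genes 43.7%. A match is a description of letters in a window and not a bound site.

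Of 36 interferon-stimulated genes tested, 24 fell and 0 rose, beside 6.15% and 4.31% of all genes tested. In the averaged effect all 36 lay below 0, as did 31 in TAC and 36 in sham hearts, with a median of -0.49 averaged, -0.39 in TAC and -0.58 in sham hearts. The diets did not overlap in either surgery for 18 of them, beside 3.62% of all genes tested that lay lower without overlap. Ifit3, which binds viral RNA together with related proteins (ENSMUSG00000074896, chr19:34583531-34588731, forward strand), had 420.2, 295 and 374 normalised reads in BCAA-free TAC hearts against 585, 522 and 561 in control TAC hearts, and 171, 177 and 183 in BCAA-free sham hearts against 332, 501 and 373 in control sham hearts. Every BCAA-free library was below every control library of its surgery, and the fall was 1.84-fold (-0.88 ± 0.12, adjusted p = 0.00125). Its near-identical neighbour Ifit3b fell alike (-0.90 ± 0.13, adjusted p = 0.00172), but reads could be split between the copies and neither value is independent of the other. Irf7, the factor that amplifies interferon production, fell by 0.57 on the log2 scale (adjusted p = 0.00726). Isg15, a ubiquitin-like modifier, measured 154, 111 and 102 normalised reads in BCAA-free TAC and 182, 168 and 239 in control TAC hearts, and 88.5, 69.6 and 66.2 in BCAA-free sham and 116, 187 and 138 in control sham hearts, with no overlap (-0.80 ± 0.15, adjusted p = 0.00468). Mx1, an antiviral GTPase, gave no call and differed by -0.44 ± 0.30 (adjusted p = 0.383). With any 1 library left out 18 to 26 members fell, and 16 without control TAC replicates 2 and 3 together, with a median of -0.52.

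Genes of MHC class I and antigen processing, which interferon also raises, fell in 4 of 17 cases, beside 6.15% of all genes tested. Of the 17, 16 lay below 0. B2m, the light chain of class I molecules, measured 5359.6, 4227 and 5856 normalised reads in BCAA-free TAC and 6384, 5920.5 and 6351 in control TAC hearts, and 3395, 3327 and 3605 in BCAA-free sham and 4579.6, 7169 and 5863 in control sham hearts (-0.52 ± 0.11, adjusted p = 0.0103). BCAA-free and control libraries did not overlap in either surgery, though the medians of the list were -0.06 in TAC and -0.38 in sham hearts. The count of 4 was 1 without BCAA-free TAC replicate 2 or BCAA-free sham replicate 3, 2 without BCAA-free sham replicate 1 or 2 or control sham replicate 2 or 3, and 8 without BCAA-free TAC replicate 3. It was 3 without control TAC replicates 2 and 3 together. The 9 class II genes gave 0 calls by limma, edgeR and DESeq2 (1 at an unadjusted p under 0.05). The smallest p was that of Ciita, their regulator (-0.41 ± 0.14, adjusted p = 0.0794). Their average joins medians of opposite sign, 0.20 in TAC and -0.49 in sham hearts, with 2 and 8 of the 9 below 0.

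The promoter of Ifit3 is shown because it carries 2 interferon response motifs (GAAA, any 2 bases and GAAA again, searched on both strands), marked in capitals.
Ifit3 (chr19:34583279-34583578, forward strand): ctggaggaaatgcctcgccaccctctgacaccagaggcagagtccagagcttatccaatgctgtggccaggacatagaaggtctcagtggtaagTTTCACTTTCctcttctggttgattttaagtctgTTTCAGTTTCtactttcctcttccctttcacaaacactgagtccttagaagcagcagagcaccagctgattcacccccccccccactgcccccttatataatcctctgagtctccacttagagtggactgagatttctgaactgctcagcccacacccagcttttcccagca

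Of 26 interferon-stimulated genes with a promoter, 16 (61.5%) held the motif, beside 3.74% of all tested genes with one, 6.14% of fallen genes and 3.33% of risen genes. The list is defined by response to interferon, so this share describes the list and not the diet.

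Basement membrane genes fell in 14 of 21 cases with 0 that rose, beside 6.15% and 4.31% of all genes tested. Their median was -0.37, with -0.34 in TAC and -0.44 in sham hearts. The basement membrane is the sheet of laminin, type IV collagen and linking proteins around muscle cells and vessels. Nid2, which joins laminin to collagen (ENSMUSG00000021806, chr14:19751265-19811787, forward strand), had 746, 681 and 661 normalised reads in BCAA-free TAC hearts against 1584, 1566 and 1498 in control TAC hearts, and 545, 599 and 443 in BCAA-free sham hearts against 868, 1212 and 711 in control sham hearts. The groups did not overlap in either surgery, and the fall was 1.96-fold (-0.97 ± 0.11, adjusted p = 0.000569). Its relative Nid1 fell by less (-0.48 ± 0.07, adjusted p = 0.00228). Collagen genes Col4a1 (-0.65 ± 0.13, adjusted p = 0.00813) and Col15a1 (-0.87 ± 0.17, adjusted p = 0.00666) and the laminins Lama4 (-0.34 ± 0.06, adjusted p = 0.00279) and Lamb1 (-0.30 ± 0.05, adjusted p = 0.00369) fell as well. In TAC hearts, BCAA-free replicate 1 stood apart from the other 2 of its group in several of these genes. Col15a1 measured 6046, 2742 and 2403 normalised reads in BCAA-free TAC and 6569, 4776 and 5775 in control TAC hearts, and 1613, 1724 and 1842 in BCAA-free sham and 3147, 4036 and 3377 in control sham hearts, so that BCAA-free TAC replicate 1 lay among the controls. The count of 14 was 10 to 15 with any 1 library left out, and 12 without control TAC replicates 2 and 3 together. Endothelial markers, which sum to 1917 to 2249 CPM in BCAA-free TAC and 2019 to 2402 CPM in control TAC hearts, and to 2143 to 2327 CPM in BCAA-free sham and 2446 to 2762 CPM in control sham hearts, lay below 0 for 11 of 14 genes. Of these 14, 2 fell, Cdh5 (-0.40 ± 0.09, adjusted p = 0.0115) and Pecam1 (-0.31 ± 0.06, adjusted p = 0.00508), both adhesion molecules of the vessel lining, and 1 fell without control TAC replicates 2 and 3 together; the part of cell content in the basement membrane result was not tested.

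Of 41 fibrillar collagen and matrix genes, 1 rose and 3 fell, beside 4.31% and 6.15% of all genes tested. The falls were 11 without BCAA-free TAC replicate 1, and 1 without BCAA-free TAC replicate 2, BCAA-free sham replicate 1 or control sham replicate 2. The rises were 2 or 3 without BCAA-free TAC replicate 2 or 3, BCAA-free sham replicate 1, control TAC replicate 1 or control sham replicate 1 or 3. Their median was 0.19 in TAC and -0.14 in sham hearts. Vcan, a proteoglycan of provisional matrix, fell (-0.70 ± 0.16, adjusted p = 0.0155), as did Loxl2, a collagen cross-linker (-0.69 ± 0.18, adjusted p = 0.0293), and Sparc, a collagen-binding protein (-0.64 ± 0.16, adjusted p = 0.0218). Fbln1, an elastic fibre protein, rose (0.28 ± 0.06, adjusted p = 0.00862), a call lost under 1 alternative. When control TAC replicates 2 and 3 were left out together, 0 rose and 7 fell.

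Genes of cardiac stress were called in both directions, against a background of 4.31% risen and 6.15% fallen over all genes tested. Of 20 tested, 4 rose (Nppa, Myh7, Xirp1 and Pln) and 1 fell (Acta1), with a median of 0.05 that lay just below 0 under quantile normalization, without BCAA-free TAC replicate 1 (-0.02) and without control TAC replicates 2 and 3 together (-0.03). Myh7, the slow myosin heavy chain that a loaded mouse heart makes again, had 81959, 67481 and 80134 normalised reads in BCAA-free TAC hearts against 55036, 40525 and 40058 in control TAC hearts, and 27158, 32773 and 30160 in BCAA-free sham hearts against 25579, 25460 and 23024 in control sham hearts. It lay higher in each BCAA-free library than in any control library of the same surgery (0.53 ± 0.10, adjusted p = 0.00691). Acta1, the skeletal actin that overload also induces, went the other way. It measured 67012, 22672 and 18584 normalised reads in BCAA-free TAC and 80784, 65606 and 74990 in control TAC hearts, and 8898, 6892 and 6281 in BCAA-free sham and 10427, 10637 and 9886 in control sham hearts (-0.89 ± 0.24, adjusted p = 0.032). BCAA-free TAC replicate 1 lay within the control TAC range while replicates 2 and 3 were far below, and the call was lost under 10 alternatives. Nppa, the atrial natriuretic peptide gene, rose (0.96 ± 0.28, adjusted p = 0.0435), but its groups overlapped in both surgeries, with 108300, 57463 and 34720 normalised reads in BCAA-free TAC and 43205, 18939 and 18559 in control TAC hearts, and the call was lost under 12 alternatives. Pln, the inhibitor of the calcium pump of the sarcoplasmic reticulum, rose without overlap (0.33 ± 0.08, adjusted p = 0.0186). The atrial list, which holds Nppa, summed to 1353 to 3251 CPM in BCAA-free TAC, 827 to 1688 CPM in control TAC, 639 to 1134 CPM in BCAA-free sham and 481 to 856 CPM in control sham hearts, and 9 of its 10 genes lay above 0; the part of atrial tissue in the Nppa result was not tested. The 4 rises were 2 without BCAA-free TAC replicate 1 or 2, BCAA-free sham replicate 1 or 2, control TAC replicate 3 or control sham replicate 1 or 2, and 1 without both control TAC replicates 2 and 3.

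Among genes of ion channels, 3 potassium channel genes rose slightly. Kcnj11, the pore of the ATP-sensitive potassium channel, had 6574, 8062 and 7386 normalised reads in BCAA-free TAC hearts against 5632, 6076 and 5924 in control TAC hearts. In sham hearts it had 7058, 7036 and 7073 without and 5959, 5740.2 and 5998 with BCAA. No group overlapped (0.29 ± 0.05, adjusted p = 0.00298), and Kcnj5, a channel opened by acetylcholine signalling, behaved alike (0.28 ± 0.05, adjusted p = 0.00471). Kcnj3, its partner, also rose (0.18 ± 0.05, adjusted p = 0.0394). These were the 3 calls among 26 genes of calcium handling and channels, beside 4.31% risen over all genes tested. The call of Kcnj3 was lost under 9 alternatives, and 2 to 5 genes of the list rose with any 1 library left out. Smooth muscle genes rose in 2 of 12 cases, Myh11 (0.63 ± 0.10, adjusted p = 0.00234) and Tagln (0.55 ± 0.12, adjusted p = 0.0106), and that list summed to 4288 to 5992 CPM in BCAA-free TAC against 3693 to 4759 CPM in control TAC hearts, and to 3592 to 3950 CPM in BCAA-free sham against 3303 to 3528 CPM in control sham hearts. Of these 12 genes, 1 rose without control TAC replicates 2 and 3 together.

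Clock genes changed in both directions, with 3 of 20 that rose and 5 that fell, beside 4.31% and 6.15% of all genes tested. The clock is a loop in which Arntl and its partners switch on the period and Nr1d genes, whose products in turn repress them, so the levels of its parts depend on the hour. Arntl (ENSMUSG00000055116, chr7:113207465-113314126, forward strand) had 293, 223 and 155 normalised reads in BCAA-free TAC hearts against 57.2, 50.2 and 71.6 in control TAC hearts, and 485, 447 and 406 in BCAA-free sham hearts against 110.3, 135 and 392 in control sham hearts. The diets did not overlap in either surgery. It rose 2.91-fold (1.54 ± 0.25, adjusted p = 0.00279), and its relative Npas2 rose too (0.64 ± 0.18, adjusted p = 0.035). Per2, a period gene, measured 613, 1089.6 and 955 normalised reads in BCAA-free TAC and 1309.5, 1951 and 1447 in control TAC hearts, and 376, 407 and 438 in BCAA-free sham and 1219, 953 and 549.7 in control sham hearts. It fell 1.95-fold (-0.96 ± 0.17, adjusted p = 0.00422), and Per3 (-0.71 ± 0.14, adjusted p = 0.00662) and the clock-driven factors Hlf (-0.52 ± 0.13, adjusted p = 0.0216) and Tef (-0.40 ± 0.11, adjusted p = 0.04) fell too. Nr1d1, which represses Arntl, rose (0.44 ± 0.08, adjusted p = 0.00431), so that an activator of the loop and a repressor of that activator were raised together. Libraries within groups differed widely. Control sham replicate 3 had 392 normalised reads of Arntl, against 110.3 and 135 in the other control sham libraries, and was the lowest control sham library for Per2, Per3, Hlf, Tef and Rora. Among BCAA-free TAC libraries, replicate 1 was highest for Arntl and lowest for Per2, Per3, Hlf and Tef. The hour of collection is not given, and its part in these changes was not tested. Leaving out control sham replicate 3 gave 3 risen and 7 fallen clock genes, and leaving out BCAA-free sham replicate 1 or control TAC replicate 2 gave 2 and 2. The counts were 2 and 3 without BCAA-free sham replicate 3, control TAC replicate 3 or control sham replicate 1, and 2 and 2 without control TAC replicates 2 and 3 together.

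**Figure D3:**
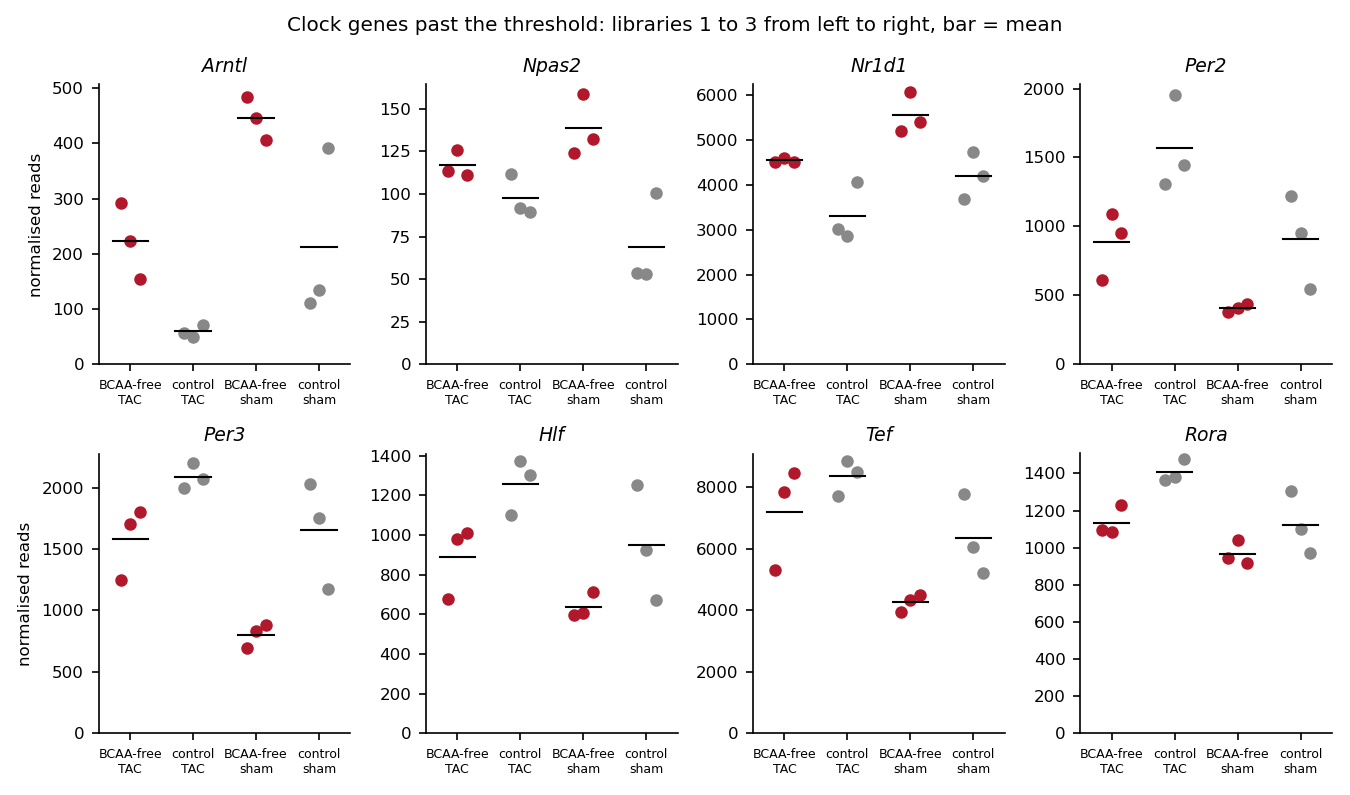
Normalised reads of the 8 clock genes past the threshold in the 12 libraries, with 1 point per library in the order 1 to 3 and a bar at the group mean. Arntl, Npas2 and Nr1d1 lie higher and the other 5 lower in BCAA-free than in control hearts of each surgery on average, and control sham replicate 3 lies nearer to the BCAA-free sham libraries for Arntl and Npas2.

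Some of the largest rises belong to cell types that are minor in heart. Of 11 T cell markers listed of 13, 4 rose (Cd8b1, Cd3d, Lef1 and Il7r) and 0 fell, with a median of 1.22. Among all genes tested 4.31% rose and 6.15% fell. Cd8b1, of the CD8 coreceptor, measured 101, 2.17 and 9.55 normalised reads in BCAA-free TAC and 0.88, 1.09 and 2.98 in control TAC hearts, and 57.7, 93.7 and 70.9 in BCAA-free sham and 30.2, 28.2 and 2.01 in control sham hearts. In TAC hearts BCAA-free replicate 1 was far above the rest and the groups overlapped, while the BCAA-free sham values all lay above the control sham values (1.96 ± 0.57, adjusted p = 0.0401). The summed T cell list was 2.77 to 18.7 CPM in BCAA-free TAC, 3.71 to 4.18 CPM in control TAC, 15.7 to 20.5 CPM in BCAA-free sham and 3.78 to 8.79 CPM in control sham hearts, and Cd3d and Cd3g were at 0 in control sham replicate 3. Gimap3, a lymphocyte GTPase (1.13 ± 0.26, adjusted p = 0.0154) among the 10 largest rises named, was likewise highest in TAC hearts in BCAA-free replicate 1. The count of 4 T cell genes was 6 without BCAA-free TAC replicate 2, 2 without BCAA-free TAC replicate 1, 4 without BCAA-free TAC replicate 3 or control sham replicate 1, and 1 or 2 without any other library. It was 1 without control TAC replicates 2 and 3 together.

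Adipocyte genes were the other such set, with 3 of 10 listed that rose of 14, beside 4.31% of all genes tested. Retn, an adipocyte hormone, had 68.2, 252 and 56.5 normalised reads in BCAA-free TAC hearts against 25.5, 17.4 and 25.9 in control TAC hearts, and 55.8, 49.8 and 44.4 in BCAA-free sham hearts against 13.9, 8.69 and 20.1 in control sham hearts. It rose 3.45-fold with no overlap in either surgery and passed under each alternative (1.79 ± 0.30, adjusted p = 0.00297). Cfd, a complement factor made by fat cells (1.29 ± 0.34, adjusted p = 0.0266), and Cidec, a lipid droplet protein (1.03 ± 0.31, adjusted p = 0.0468), rose with overlap in TAC hearts, Cidec also in sham hearts, and both were highest in BCAA-free TAC replicate 2. Their calls were lost under 4 and 10 alternatives, and the 3 rises were 1 without BCAA-free sham replicate 1 or control TAC replicate 2 or 3 and 5 without control TAC replicate 1. Retn was the 1 adipocyte call without control TAC replicates 2 and 3 together. Adipoq, the defining adipocyte hormone, measured 102, 347 and 72.1 normalised reads in BCAA-free TAC and 167, 39.3 and 37.8 in control TAC hearts, and 172, 79.9 and 72.8 in BCAA-free sham and 59.2, 28.2 and 34.1 in control sham hearts, which also peaked in BCAA-free TAC replicate 2 and gave no call (1.18 ± 0.40, adjusted p = 0.0727). Brown fat marker Ucp1 was at 0 in 2 control sham libraries and 1 control TAC library, and had 239.6 normalised reads in BCAA-free sham replicate 1 and 130.1 in BCAA-free TAC replicate 2. The part of fat attached to the heart in the rise of Retn was not tested. The summed adipocyte list, led by Fabp4 and Plin4, which heart muscle and vessels also express, was 671 to 900 CPM in BCAA-free TAC, 748 to 831 CPM in control TAC, 720 to 831 CPM in BCAA-free sham and 825 to 859 CPM in control sham hearts. The 20 macrophage markers gave 0 calls by limma (6 at an unadjusted p under 0.05, 0 calls by edgeR and 2 by DESeq2), and their list summed to 482 to 604 CPM in BCAA-free TAC, 410 to 672 CPM in control TAC, 286 to 311 CPM in BCAA-free sham and 375 to 408 CPM in control sham hearts. Without control TAC replicates 2 and 3, 6 macrophage markers fell, and 4 fell without BCAA-free TAC replicate 1.

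The remaining lists had few calls each. The background was 4.31% risen and 6.15% fallen genes, and several lists exceeded it, such as autophagy (5 of 24 rose) and imprinted genes (3 of 16 fell). Genes of detoxification under NRF2 rose in 3 of 24 cases, Gstm1 (0.62 ± 0.13, adjusted p = 0.00726) and Gstm2 (0.55 ± 0.10, adjusted p = 0.00398), which conjugate glutathione, and Gpx3, a secreted peroxidase (0.68 ± 0.15, adjusted p = 0.0117). Autophagy genes rose in 5 of 24 cases, among them Map1lc3a, of the autophagosome membrane (0.32 ± 0.06, adjusted p = 0.00615), and Lamp1, of the lysosome membrane (0.23 ± 0.05, adjusted p = 0.007), and 5 or 6 rose with any 1 library left out but 2 without both control TAC replicates 2 and 3. Fatty acid genes rose in 4 of 40 cases and fell in 2, with Slc27a1, a fatty acid transporter, up (0.43 ± 0.09, adjusted p = 0.0117) and Ucp2, a mitochondrial carrier, down (-0.35 ± 0.09, adjusted p = 0.0251). Their rises were 8 without BCAA-free TAC replicate 1 and 7 without control sham replicate 3. They were 2 or fewer without BCAA-free TAC replicate 2 or 3, BCAA-free sham replicate 3, control TAC replicate 1, 2 or 3 or control sham replicate 2, and 0 without control TAC replicates 2 and 3 together. The falls were 0 to 3 with any 1 library left out. TCA cycle genes rose in 3 of 19 cases, Idh2 (0.31 ± 0.07, adjusted p = 0.018) among them, and their median of 0.09 became -0.01 under quantile normalization. Only leaving out BCAA-free TAC replicate 1 or control sham replicate 3 kept the number at 3. It was 2 without BCAA-free TAC replicate 2 or BCAA-free sham replicate 2, 1 without any other single library, and 0, Idh2 included, without control TAC replicates 2 and 3 together. Glycolysis genes rose in 1 of 26 cases and fell in 3, with Pfkfb2, a regulator of glycolytic flux, down (-0.45 ± 0.09, adjusted p = 0.00726). Of 16 imprinted growth genes 1 rose, H19, a non-coding RNA (0.48 ± 0.10, adjusted p = 0.011), and 3 fell, led by Mest (-1.16 ± 0.21, adjusted p = 0.00369). Histone acylation genes split, with 3 of 33 up and 2 down, Kat5 (0.24 ± 0.05, adjusted p = 0.00741) and Kat6a (-0.25 ± 0.06, adjusted p = 0.0138), both acetyltransferases, in opposite directions. Splicing factors of the SR family gave 1 rise, Srsf5 (0.40 ± 0.07, adjusted p = 0.00326), and 1 fall in 21. By limma, chaperones of the endoplasmic reticulum gave 0 calls in 20 (1 at an unadjusted p under 0.05, 0 by edgeR and 1 by DESeq2), with Edem1 nearest (-0.28 ± 0.09, adjusted p = 0.0721), and immediate early genes 0 in 24 (7 at an unadjusted p under 0.05, 0 by edgeR and 2 by DESeq2), with Klf10 nearest (-0.42 ± 0.13, adjusted p = 0.0533), though 1 rose and 1 fell without control TAC replicates 2 and 3 together. Lists with 1 call in a direction were cholesterol and fatty acid synthesis (1 of 33 fell), cytosolic heat shock (1 of 18 fell), the IGF axis (1 of 14 rose and 1 fell) and TGF-beta signalling (1 of 24 rose and 1 fell). Without control TAC replicates 2 and 3 together these 4 lists gave 0 calls by limma. With them left out, 2 NRF2 genes rose and 1 fell, 0 glycolysis genes rose and 1 fell, 1 histone acylation gene rose and 0 fell, 0 imprinted genes rose and 2 fell, and 1 SR factor rose and 0 fell. With any 1 library left out, 1 to 5 histone acylation genes and 3 to 6 NRF2 genes rose.

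Of 14 fibroblast markers Dpep1 rose, a call lost under 8 alternatives, and Ddr2, a collagen receptor, fell (-0.31 ± 0.06, adjusted p = 0.00576). Over all genes tested, 4.31% rose and 6.15% fell, so 1 call each way among 14 was near the background. The median of the 14 was 0.14 in TAC and -0.41 in sham hearts, with 5 and 13 below 0. Without BCAA-free TAC replicate 1, 7 fibroblast markers fell, and without control TAC replicates 2 and 3 together 2 fell. Of 6 skeletal muscle markers tested, Mylpf (0.78 ± 0.16, adjusted p = 0.00902) and Tnni2 (0.65 ± 0.17, adjusted p = 0.0279), of fast fibres, rose and Acta1 fell, and 0 passed by limma without control TAC replicates 2 and 3 together. Blk, a B cell kinase, was the 1 of 10 B cell markers that fell, and Wt1 the 1 of 4 mesothelial markers that fell (-0.56 ± 0.16, adjusted p = 0.038). Most members of both lists went the other way, with 8 B cell markers (list median 0.20) and 3 mesothelial markers (list median 0.81) above 0. Pln was the 1 of 13 cardiomyocyte markers that rose. The calls of Blk, Wt1 and Pln were lost under 7, 8 and 3 alternatives, for Wt1 and Pln among them the omission of control TAC replicates 2 and 3 together. Neutrophil, erythroid, liver, lung, thymus, Schwann cell and RNA polymerase III lists gave 0 calls by limma, edgeR and DESeq2 and 0 genes at an unadjusted p under 0.05. The 3 neutrophil genes tested, which had few reads, had a median of 1.58 in TAC and -1.61 in sham hearts.

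**Figure D4:**
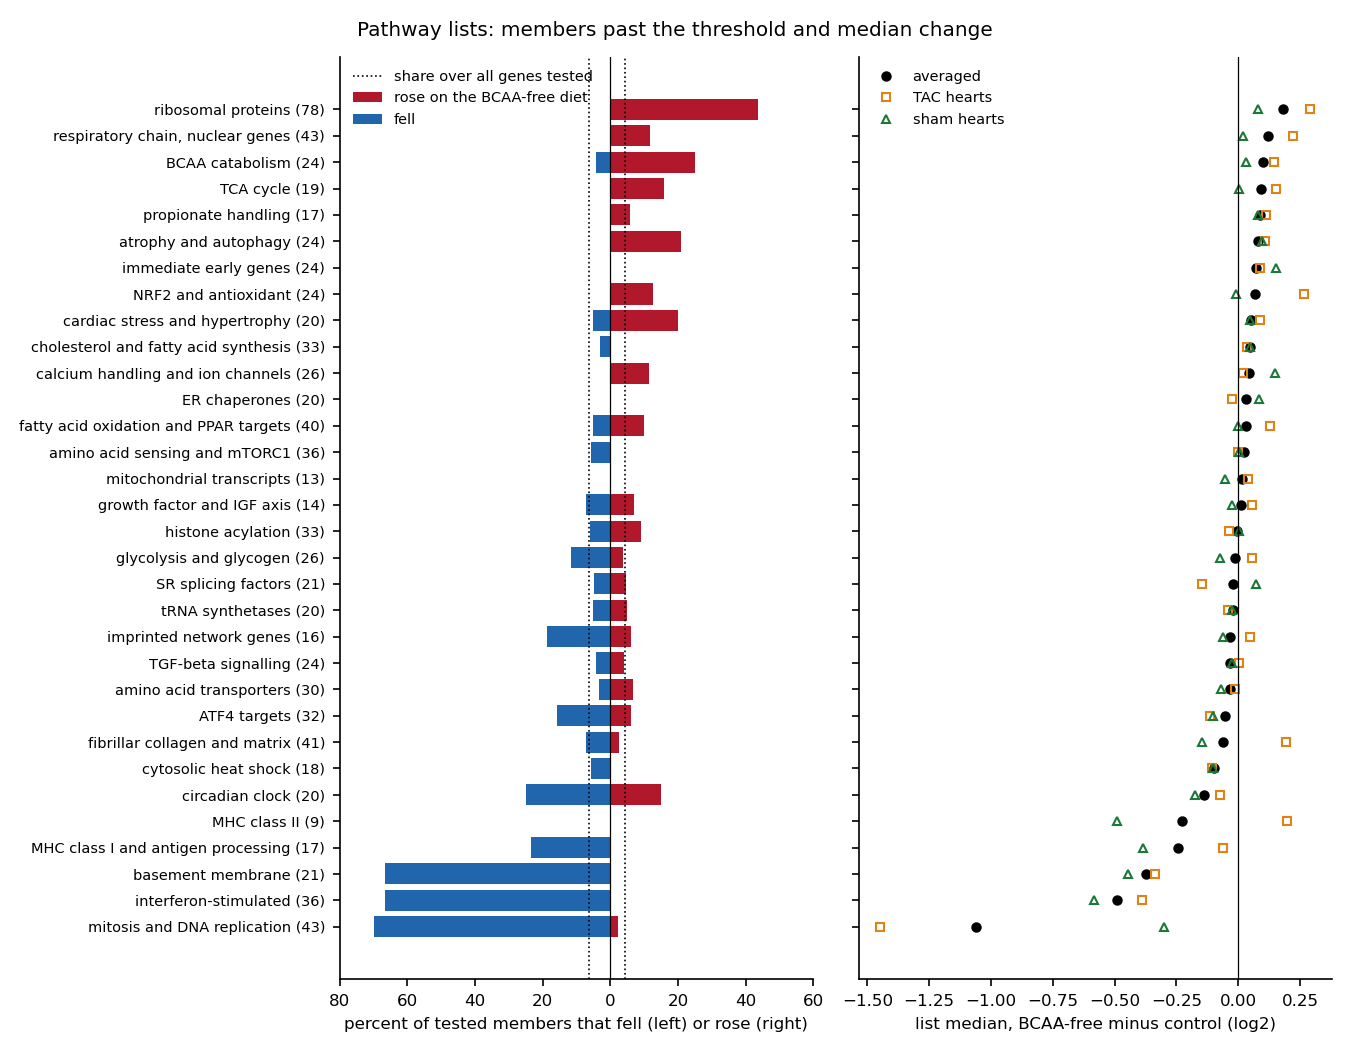
For each of the 32 pathway lists, with the number of tested members in brackets, the left panel gives the percent of members that rose (right of 0) or fell (left of 0) beside dotted lines at the 4.31% and 6.15% of all genes, and the right panel the median BCAA-free minus control difference (log2) averaged, in TAC hearts and in sham hearts. Mitosis, interferon and basement membrane lists reach farthest to the left and ribosomal proteins to the right; the lists were chosen with earlier results of these data known.

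Whether the averaged surgeries differed was tested by the diet by surgery term, which called 7 of 15458 genes (0.0453%). Among fallen division genes, Lmnb1, a protein of the nuclear lamina, averaged 232 ± 4.71 normalised reads in BCAA-free TAC and 615 ± 26.7 in control TAC hearts (SD, n = 3 each), and 183 ± 4.31 in BCAA-free sham and 209.7 ± 13.8 in control sham hearts. Its diet difference was -1.39 in TAC and -0.19 in sham hearts (limma adjusted p = 0.00496 for the term). Stmn1, which destabilises microtubules, differed by -1.20 in TAC and -0.13 in sham hearts (adjusted p = 0.0413). For these genes the average stands for TAC hearts more than for sham hearts. For Top2a (adjusted p = 0.28), Mki67 (adjusted p = 0.33) and Ifit3 (adjusted p = 0.4) the term did not pass, which does not show that the surgeries were alike. The count of 7 was 111 by DESeq2, 5 by edgeR and 2 to 17 with any 1 library left out.

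Risen and fallen genes differed in transcript length. The median transcript was 2589 bases for risen genes, 4418 bases for fallen genes and 3207 bases for all genes tested. Of the 3859 shortest genes 6.12% rose and 2.85% fell, whereas of the 3856 longest 2.39% rose and 11.4% fell. Across 15423 genes the averaged change and length had a Spearman rho of -0.22, with -0.26 in TAC and -0.09 in sham hearts, and -0.17 without control TAC replicates 2 and 3. The libraries differed in the same measure. Set against the mean of its surgery, expression correlated with length at -0.07, -0.25 and -0.14 in BCAA-free TAC replicates 1 to 3, and at 0.14, 0.22 and 0.14 in control TAC replicates 1 to 3. In sham hearts the values were -0.17, 0.12 and -0.15 in BCAA-free and 0.03, 0.15 and -0.05 in control replicates 1 to 3, so the diets overlapped there. Ribosomal protein transcripts are short, with a median of 1076 bases, and basement membrane transcripts long, with a median of 6536 bases, and the part of length in their changes was not tested. Division genes (3431 bases) and interferon-stimulated genes (2626 bases) lay nearer to the median of all genes.

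**Figure D5:**
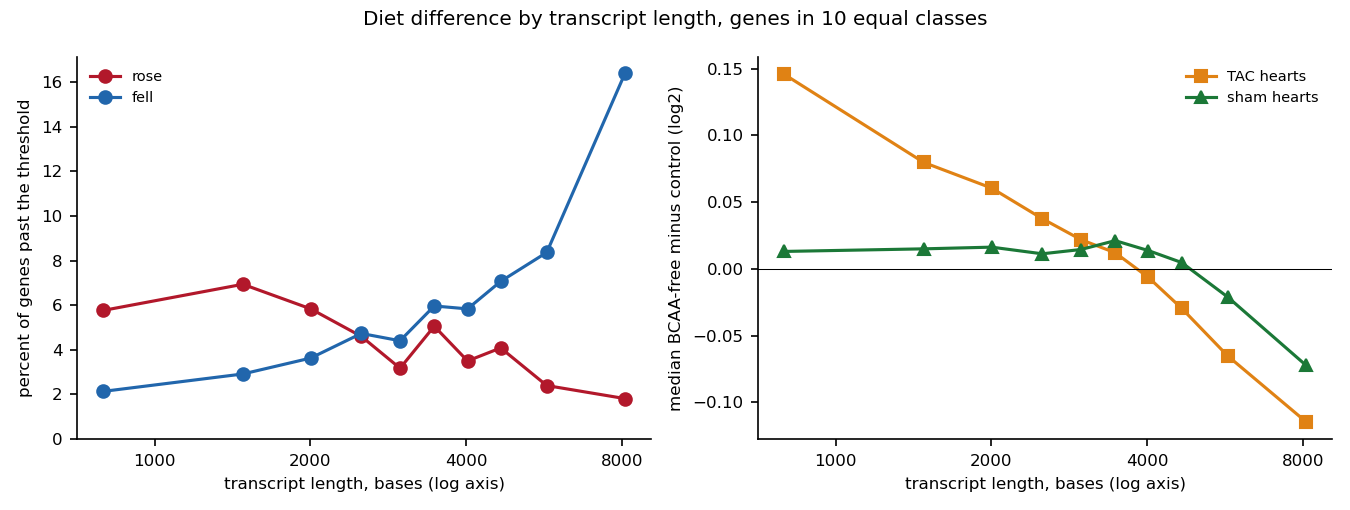
Genes in 10 classes of nearly equal number by transcript length (bases, log axis), with the percent that rose or fell in the averaged effect on the left and the median BCAA-free minus control difference (log2) in TAC and sham hearts on the right. The share that fell climbs to 16.4% in the longest class while the share that rose drops to 1.81%, and the medians of the longest class lie below those of the shortest in both surgeries.

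Risen and fallen genes had like shares of BCAA codons. Codons for leucine, isoleucine and valine made up a median of 20.7% of the coding sequence of risen genes, 20.5% of that of fallen genes and 20.6% over all genes tested.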

How the data were processed

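The deposited values are polyA RNA signal per gene, which the authors made by dividing reads by a size factor for each library, as read from the values: every value is a whole number of reads within 0.001 reads. The tools were STAR 2.5.2b, Trimmomatic 0.36, DESeq2 and Subread 1.5.2 on GRCm38 (mm10), per the submitters' processing notes, which give neither settings nor strandedness. The authors' deposited tables also give an adjusted p-value and a log2 fold change per gene, used here for their counts of calls and to check the sign. The TAC and sham tables were scaled separately, so diets were compared within a table.

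Genes listed in both tables with a mean of at least 10 (15458) were tested with limma 3.58.1 in R 4.3.3 on log2(value + 4), with terms for surgery and diet, a trended variance and Benjamini-Hochberg adjustment; this understates the change of low genes. Adjusted p-values in the text come from that fit unless another is named. The difference between surgeries is the diet by surgery term. Recovered reads were also tested with edgeR 4.0.16 and DESeq2 1.42.0, and 100% of values came out whole. Libraries held 29925796 to 46099197 reads, and no library was a repeat of another of its group. The fit was tested on simulated data.

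Genes were named by rule: the 10 largest called rises and the 10 largest called falls among genes averaging 50 or more normalised reads, leaving out predicted genes and those of opposite sign in the surgeries, up to 2 members of each pathway list with the smallest p, and marker genes past the threshold. Other members named were chosen after their values were seen. Some genes that the rule names are not reported here. The comparison, the 32 pathway lists and the 18 marker lists were chosen with earlier results of these data known. Gene positions and transcript lengths come from GENCODE M21 (GRCm38). Alternatives covered pseudocounts of 1 and 16, a mean of at least 50, no filter, TMM and quantile scaling, a mean for each group, a replicate block, edgeR, DESeq2, and leaving out libraries. Where libraries were left out, the surgery with more libraries had more weight, so the change was not the plain mean of both differences.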

Additional observations from a re-analysis of the deposited data

Results flagged for a closer look

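The diet effect differed between TAC and sham hearts by the diet by surgery term of limma for 7 genes (adjusted p under 0.05). Lmnb1, of the nuclear lamina, differed by -1.39 in TAC and -0.19 in sham hearts (adjusted p = 0.00496). Klf2, a flow-responsive factor of vessel lining, averaged 2636 ± 239 normalised reads in BCAA-free TAC and 2831.5 ± 133 in control TAC hearts, and 3299 ± 396 in BCAA-free sham and 1529.7 ± 187 in control sham hearts (SD, n = 3 each; limma adjusted p = 0.00496). Srsf2, a splicing factor, differed by -0.25 in TAC and 0.38 in sham hearts (adjusted p = 0.0361). Adjusted p was 0.0413 for the other 4. Igfbp6, a binding protein of insulin-like growth factors, differed by 0.74 in TAC and -0.05 in sham hearts. Cdc7, a kinase that starts DNA replication, differed by -1.79 in TAC and 0.19 in sham hearts, and Stmn1, which acts on microtubules, by -1.20 and -0.13. The predicted gene Gm25262 differed by -0.70 in TAC and 1.82 in sham hearts. Of the 7, only Lmnb1 and Stmn1 passed in the averaged effect.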

How the results depend on the processing

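No called result changed sign. Several list medians did, most of them near 0: under quantile normalization the median was -0.01 for TCA cycle genes and just below 0 for cardiac stress and mitochondrial transcripts, and that of cardiac stress was -0.03 without control TAC replicates 2 and 3 together. The averaged count of 1617 was 1549 to 1819 under the other scalings, filters, pseudocounts and models, 1604 with edgeR and 2214 with DESeq2. With any 1 library left out it was 940 to 1954, with 367 to 829 higher and 573 to 1125 lower. Without control TAC replicates 2 and 3 together it was 611 (207 higher, 404 lower), of which 546 were among the 1617 with the same sign. The 7 genes that differed between surgeries became 111 with DESeq2, 4 at a mean of at least 50, 2 to 17 with any 1 library left out and 1 without both control TAC libraries. Sham hearts alone gave 68 to 1019 calls and TAC hearts alone 100 to 1044 with any 1 library left out; TAC hearts gave 0 by limma without control TAC replicates 2 and 3, where a lone control library is assumed to vary like the other group, no other tool was run and 1750 genes had an unadjusted p under 0.05. The causes were not tested. Of the 87 named genes past the threshold, 44 passed under all 23 alternatives. Whether replicate numbers pair the libraries was not settled. Of same-number pairs, 3 of 18 had a correlation of deviations over 0.1, beside 2 of 36 other pairs. The 3 lay between the diets within a surgery: TAC replicates 1 (0.24) and 3 (0.11) and sham replicate 2 (0.11). Of 12 libraries, 6 correlated best with their own number. With the replicate block the counts were 1549 averaged, 713 in sham hearts, 1275 in TAC hearts and 3 for the difference. Without it they were 1617, 438, 548 and 7. No filter on low values left the same genes, since all pass a mean of 10. Small changes of genes with few reads are limited by counting error.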
